A study of Mus musculus with 12 samples.

Results

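The transcripts described are 9 genes of the complement system, chosen by name as components (C3, C4b, C2, Cfb, C1s1, C1ra), the inhibitor Serping1 and the receptors C3ar1 and C5ar1, out of 42803 gene names in the count table. All 9 passed the filter on low counts, which left 19525 genes tested. Serping1 was included because its difference was among the lowest with DOX, so its level in DOX against Ctrl is given as a description with no test. The samples were 12 RNA-seq libraries of whole tumours from C57BL/6J mice, inoculated under the skin at 8 weeks of age with the colon carcinoma line MC38, in 6 groups of 2. The R+D group was read as the conjugate Ru-PD-L1 followed by DPD, the prodrug of doxorubicin (DOX), and the R+X group as the same conjugate followed by DOX, with 14 µg of drug injected beside the tumour 6 hours after the conjugate. The RP group was read as Ru-PD-L1 alone, an antibody-catalyst conjugate directed at the checkpoint ligand PD-L1, given at 20 µg. The DPD and DOX groups received 14 µg of drug alone, and the Ctrl group received PBS. Single agents were given into the peritoneum. Injections began on day 9 and were repeated every 3 days, and tumours were taken on day 20. The labels do not restate the conjugate dose in the combined groups, and the route of the drug changed together with the combination. Whether the 2 libraries of a group are from different animals is not stated either, so each p reflects only how far these libraries differ, which may be technical.

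Complement is a cascade of plasma and tissue proteins that tags cells and debris for removal. In the classical pathway, C1q bound to antibody or damaged surfaces activates the proteases C1r and C1s, which cut C4 and C2 to form an enzyme that cuts C3. In the alternative pathway factor B takes the place of C2. C1 inhibitor, the product of Serping1, blocks C1r and C1s, and the fragments C3a and C5a attract and activate myeloid cells through the receptors C3ar1 and C5ar1. The liver makes most of the plasma supply, but fibroblasts, macrophages and tumour cells also transcribe these genes, and several of them are known targets of interferon gamma.

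On GRCm38, C4b (chromosome 17, 34728139 to 34743902), Cfb (34856374 to 34862514) and C2 (34862602 to 34882100) lie close together in the major histocompatibility region, with 87 bases between Cfb and C2. C3 lies elsewhere on chromosome 17 (57203967 to 57228136). C1ra (124512621 to 124523440) and C1s1 (124530344 to 124542392) lie on chromosome 6, tail to tail and 6903 bases apart, and C3ar1 lies on the same chromosome (122847140 to 122856157). Serping1 is on chromosome 2 (84765360 to 84775444) and C5ar1 on chromosome 7 (16246743 to 16259540), and all 9 are annotated as protein coding.

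Promoter sequences from RefSeq (GRCm38.p6) are shown for C3, C1s1 and C1ra, which shared one pattern over the libraries, and for C3ar1, which did not share it. Serping1, C4b, C2 and Cfb had no entry among the promoters used here, so these sequences do not cover the whole pattern. Each covers the 250 bases before an annotated start: chr17:57228137-57228386 (minus strand) for C3, chr6:124542360-124542609 (minus strand) for C1s1, chr6:124512371-124512620 (plus strand) for C1ra and chr6:122856158-122856407 (minus strand) for C3ar1. Capitals mark matches to the motifs searched on both strands.
C3: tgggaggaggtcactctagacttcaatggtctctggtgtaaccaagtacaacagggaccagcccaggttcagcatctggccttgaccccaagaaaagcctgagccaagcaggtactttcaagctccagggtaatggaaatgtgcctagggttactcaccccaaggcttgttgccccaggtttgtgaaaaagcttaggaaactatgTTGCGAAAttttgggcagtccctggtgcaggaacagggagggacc
C1s1: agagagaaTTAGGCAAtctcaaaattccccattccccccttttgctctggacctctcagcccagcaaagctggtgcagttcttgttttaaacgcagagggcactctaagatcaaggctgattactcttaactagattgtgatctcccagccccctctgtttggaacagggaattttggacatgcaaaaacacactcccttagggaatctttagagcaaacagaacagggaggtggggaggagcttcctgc
C1ra: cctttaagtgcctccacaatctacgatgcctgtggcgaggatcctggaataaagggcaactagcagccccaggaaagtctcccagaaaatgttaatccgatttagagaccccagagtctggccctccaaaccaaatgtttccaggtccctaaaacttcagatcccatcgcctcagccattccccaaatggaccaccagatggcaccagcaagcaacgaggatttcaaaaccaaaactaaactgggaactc
C3ar1: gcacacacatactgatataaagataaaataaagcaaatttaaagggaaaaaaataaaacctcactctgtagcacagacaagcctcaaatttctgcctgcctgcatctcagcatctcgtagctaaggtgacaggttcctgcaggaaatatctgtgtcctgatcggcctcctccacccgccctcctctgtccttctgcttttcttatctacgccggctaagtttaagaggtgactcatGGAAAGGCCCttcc
The motifs were the STAT element TTCNNNGAA, the interferon response element (GAAA, any 2 bases, GAAA), the kappa B form (GGG, any 3 bases, TTCC) and the C/EBP form TTGCNNAA, the last of them added after the C3 sequence had been read. Over the same window, they were found in 7.02%, 2.98%, 4.65% and 9.56% of 32851 promoters, in that order. The C3 promoter held a C/EBP match, TTGCGAAA, 45 to 38 bases before the start, and the C1s1 window shown held one on the other strand, TTAGGCAA, 242 to 235 bases before its start. The window of a second annotated C1s1 start, chr6:124542322-124542571, did not reach that stretch and held none of the 4 forms. The C3ar1 promoter held a kappa B match, GGAAAGGCCC, 14 to 5 bases before the start, and the C1ra window held none of the 4 forms. For C1ra the sequence after that start was not found in its GENCODE M21 transcripts, unlike the others, so its start is less certain. The C5ar1 promoter, not shown, held none of the 4 forms.

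The components and the inhibitor were higher with the conjugate alone than in any other group, while the receptors were at similar levels throughout. For C3, C4b, C2, Cfb, C1s1, C1ra and Serping1 both RP libraries stood above the 10 others, which held for 951 of the 19525 genes tested (4.87%). Levels below are CPM, the count relative to the TMM-scaled library size, and pairs of values are replicates 1 and 2. C3 spanned the widest range, from 15.2 to 192 CPM (12.7-fold), and C3ar1 the narrowest, from 28.5 to 41.4 CPM (1.45-fold). Per kilobase of annotated exon, C1s1 had the highest median over the libraries (14.7 CPM per kb), followed by Serping1 (10.7) and C1ra (10.5), and C2 had the lowest (0.236).

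**Figure D1:**
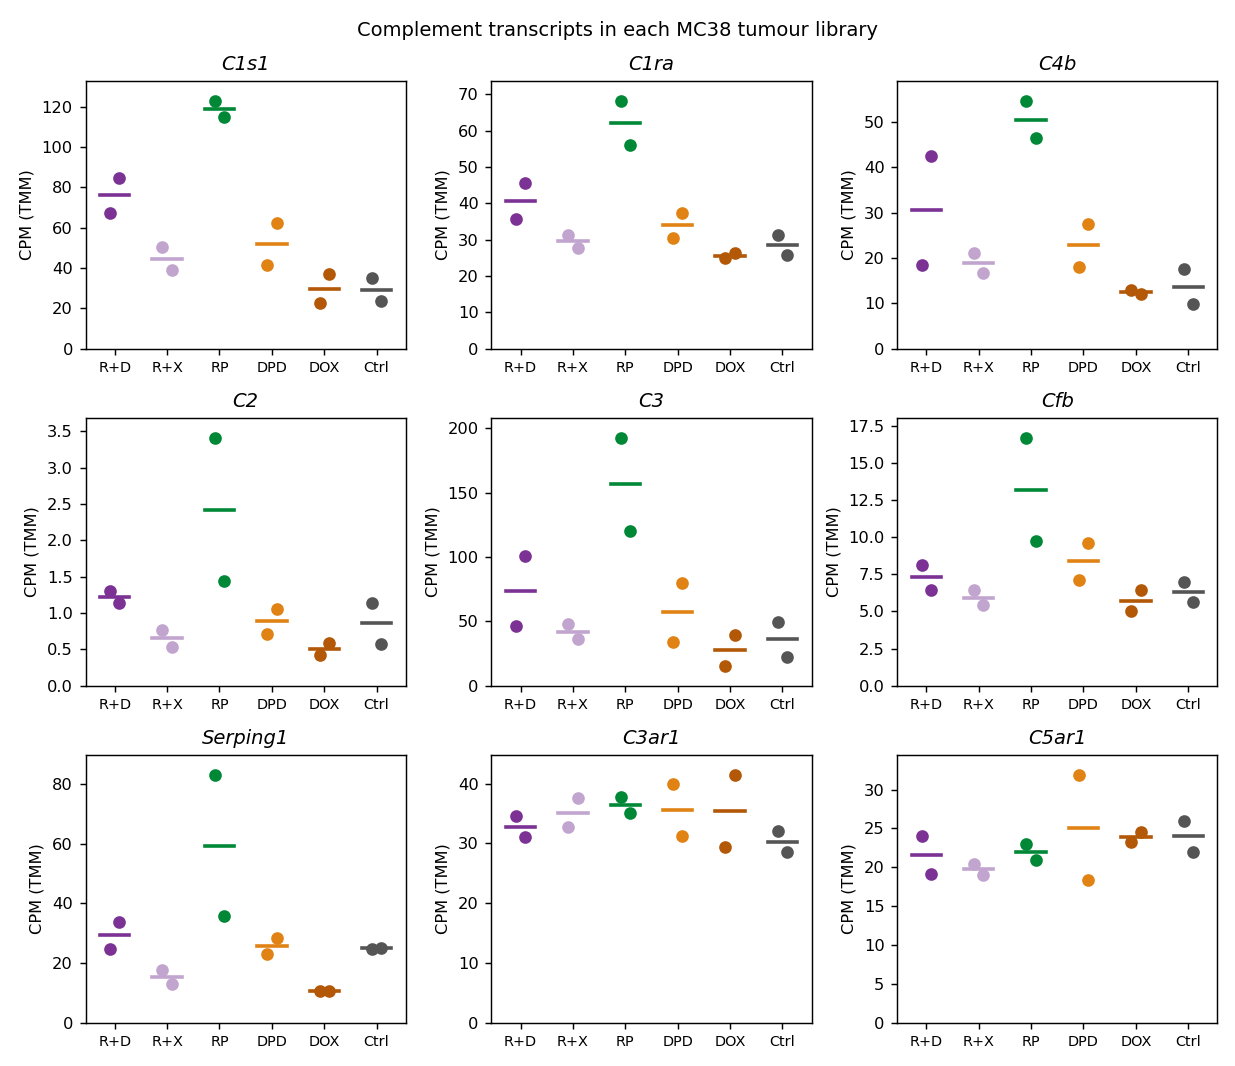
TMM-scaled CPM (y axis, linear from 0) of the 9 complement genes in each group (x axis). Points are libraries and horizontal lines the mean of 2; in the panels of C1s1, C1ra, C4b, C2, C3, Cfb and Serping1 both RP points lie above all others, C3 reaching 192 and 120 CPM.

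The proteases that start the classical pathway were measured at moderate levels. C1s1, the protease that cuts C4 and C2, had 67.3 and 84.8 CPM in R+D, 50.5 and 38.8 in R+X, 123 and 115 in RP, 41.3 and 62.5 in DPD, 22.6 and 37 in DOX, and 35 and 23.5 in Ctrl. The RP pair lay above R+D, R+D lay above DPD, and Ctrl and DOX overlapped at the low end. C1ra, which activates C1s, had 35.6 and 45.6 CPM in R+D, 31.3 and 27.8 in R+X, 68.2 and 55.9 in RP, 30.5 and 37.2 in DPD, 24.9 and 26.3 in DOX, and 31.4 and 25.8 in Ctrl. Among neighbouring groups in the order of means (DOX, Ctrl, R+X, DPD, R+D, RP), only R+D and RP did not overlap for C1ra.

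C4b, a substrate of C1s whose product binds covalently to surfaces, had 18.5 and 42.6 CPM in R+D, 21.2 and 16.7 in R+X, 54.7 and 46.4 in RP, 18.1 and 27.5 in DPD, 12.9 and 12.1 in DOX, and 17.5 and 9.82 in Ctrl. The R+D libraries were far apart, the lower of them inside the range of R+X. C2, the protease partner of C4, was scarce, with 1.3 and 1.14 CPM in R+D, 0.766 and 0.536 in R+X, 3.41 and 1.44 in RP, 0.717 and 1.06 in DPD, 0.419 and 0.587 in DOX, and 1.14 and 0.58 in Ctrl.

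C3, the protein on which the pathways converge, had 46.2 and 101 CPM in R+D, 47.7 and 36 in R+X, 192 and 120 in RP, 34.1 and 79.8 in DPD, 15.2 and 39.6 in DOX, and 49.6 and 22.4 in Ctrl. Groups other than RP overlapped their neighbours, since libraries of one group differed by up to 2.61-fold (DOX). Cfb, factor B of the alternative pathway, had 8.13 and 6.45 CPM in R+D, 6.44 and 5.43 in R+X, 16.7 and 9.73 in RP, 7.13 and 9.61 in DPD, 5.01 and 6.46 in DOX, and 6.97 and 5.62 in Ctrl. RP replicate 2 was above DPD replicate 2 by little, 9.73 against 9.61 CPM.

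Serping1 had 24.9 and 33.7 CPM in R+D, 17.7 and 13.1 in R+X, 83 and 35.8 in RP, 23 and 28.5 in DPD, 10.7 and 10.7 in DOX, and 24.7 and 25.2 in Ctrl. The low DOX pair is what chose this gene. It was also low in R+X, the other group given DOX, which that choice did not use: both R+X libraries lay below the 8 libraries of R+D, RP, DPD and Ctrl. That held for 468 of the genes tested (2.4%) and, among the 9 members, for Serping1 alone. The Ctrl libraries in this count were part of the choice.

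The receptors did not follow the components. C3ar1, the receptor of C3a, had 34.5 and 31.1 CPM in R+D, 32.8 and 37.6 in R+X, 37.9 and 35.1 in RP, 40 and 31.2 in DPD, 29.3 and 41.4 in DOX, and 32 and 28.5 in Ctrl, and all neighbouring groups overlapped. C5ar1, the receptor of C5a, had 24 and 19.2 CPM in R+D, 20.4 and 19 in R+X, 23.1 and 20.9 in RP, 31.9 and 18.4 in DPD, 23.3 and 24.6 in DOX, and 26 and 22 in Ctrl. Its highest and lowest libraries both belonged to DPD.

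Group mates differed in one direction for all 7 components and inhibitor in R+X, RP and DPD, but not in R+D, DOX and Ctrl. Of the 7 genes, the number higher in replicate 1 than in replicate 2 was 2 in R+D, 7 in R+X, 7 in RP, 0 in DPD, 2 in DOX and 6 in Ctrl. The replicate numbers are only names, and these counts were not set against all genes.

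What the conjugate alone did was asked by comparing RP with Ctrl. C1s1 was higher in RP by 2.02 ± 0.30 log2 units (SE), the smallest adjusted p among the members (edgeR, Benjamini-Hochberg, adjusted p = 0.0611). C3 was higher by 2.12 ± 0.59, C4b by 1.89 ± 0.39, C2 by 1.49 ± 0.50, Serping1 by 1.25 ± 0.33, C1ra by 1.12 ± 0.19 and Cfb by 1.07 ± 0.30, with edgeR adjusted p from 0.113 to 0.170. These 7 members each had groups that did not overlap and an unadjusted p under 0.05, against 12% of all genes tested that were higher in this way and 9.36% that were lower, and 0 members were lower. Without Serping1, whose choice used the Ctrl libraries, it was 6 of 8. The median over the 9 members was 1.25, and that over all genes was 0.06. In edgeR 0 of 9 members passed at an adjusted p of 0.05, where 3 genes in all did (0.0154%), and 7 had an unadjusted p under 0.05. DESeq2 called 6 of the 9, all but C2 and the receptors, among 1211 genes. Without RP replicate 1, which held the highest value of each of the 7 genes, 4 members in place of 7 met both conditions, and Serping1 stood at 0.48, Cfb at 0.59 and C2 at 0.70.

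The receptors in RP against Ctrl were at 0.27 ± 0.20 for C3ar1 (95% interval -0.17 to 0.71) and -0.13 ± 0.24 for C5ar1 (-0.66 to 0.40). Both RP libraries of C3ar1 lay above the Ctrl libraries, with an unadjusted p over 0.05, and the C5ar1 libraries of RP and Ctrl overlapped.

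**Figure D2:**
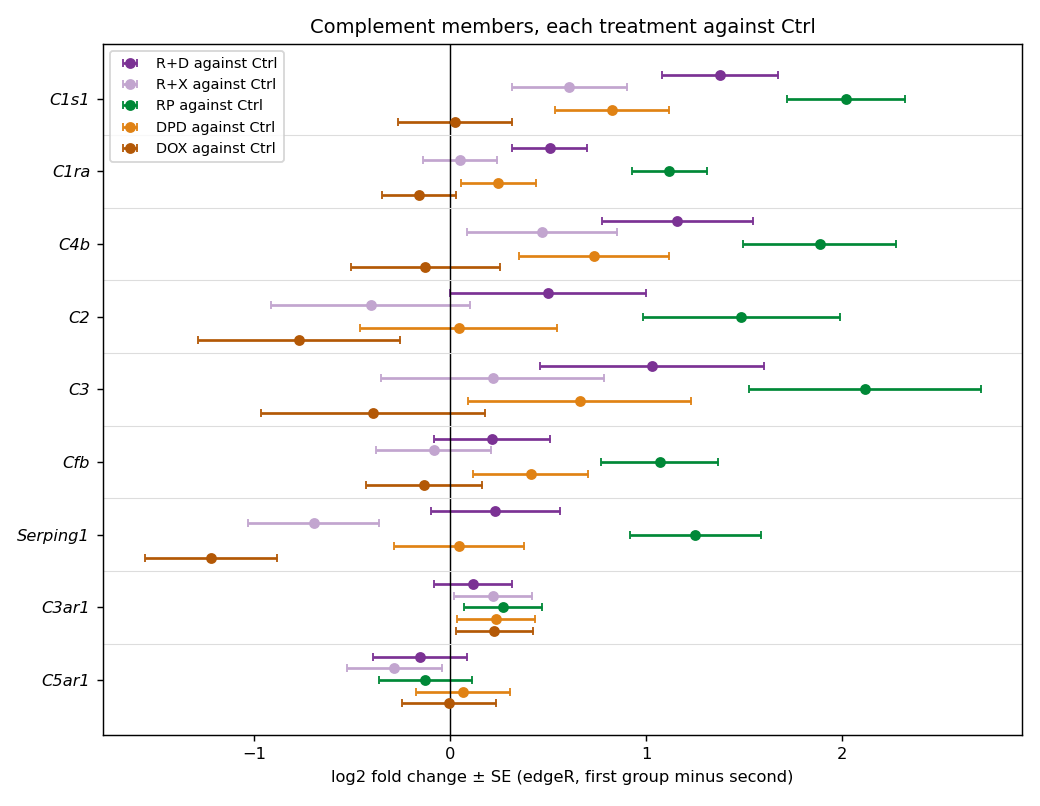
Fold changes on the log2 scale with their SE (x axis) of the 9 genes (rows) in R+D, R+X, RP, DPD and DOX, each against Ctrl, from one edgeR fit. The RP points are highest for the first 7 rows, C3 at 2.12 and C1s1 at 2.02, and the Serping1 points of R+X and DOX lie left of 0; all comparisons share the Ctrl libraries.

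With the conjugate and the prodrug, R+D against Ctrl, the same conditions were met by C1s1 (1.38 ± 0.30), C4b (1.16 ± 0.38) and C1ra (0.51 ± 0.19), all higher, against 8.51% of genes higher and 6.64% lower (edgeR adjusted p = 0.314 for each). Serping1 stood at 0.23 ± 0.33 and C3 at 1.03 ± 0.57. In edgeR 0 members and 0 genes (0%) passed, with 3 members and 2998 genes at an unadjusted p under 0.05, while DESeq2 called C1s1 among 232 genes. The count of 3 members was 1 without Ctrl replicate 2 or R+D replicate 2 and 4 without Ctrl replicate 1 or R+D replicate 1, and C4b was at 0.43 without R+D replicate 2.

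With the conjugate and DOX, R+X against Ctrl, 0 members met the conditions, against 3.52% of genes higher and 2.46% lower. Serping1 was at -0.70 ± 0.33 (95% interval -1.44 to 0.04), C1s1 at 0.61 ± 0.29, C4b at 0.47 ± 0.38 and C3 at 0.22 ± 0.57. The Serping1 values against Ctrl, here and in R+D and DPD, are descriptions, since the Ctrl libraries were part of its choice. In edgeR 0 genes passed (0%), 1172 had an unadjusted p under 0.05, and DESeq2 called 4 genes and no member. Without the low-count filter, with only these groups, and in DESeq2, 2 members met the conditions in place of 0. In the edgeR fit the members nearest the threshold were Serping1 (edgeR unadjusted p = 0.0619) and C1s1 (0.0629). Serping1 was not set apart in these counts, so they are not read as support.

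The prodrug given alone was also set against Ctrl. In DPD against Ctrl all 9 fold changes were positive, from 0.04 (C2) to 0.83 ± 0.29 (C1s1), and C1s1 alone met both conditions (2.47% of genes higher and 1.27% lower, edgeR adjusted p = 0.725). Serping1 was at 0.04 ± 0.33. In edgeR 0 genes passed (0%), with 784 at an unadjusted p under 0.05 and 7 called by DESeq2. The count of 1 was 2 without Ctrl replicate 1, 2 without DPD replicate 1, and 0 without Ctrl replicate 2 or DPD replicate 2.

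In DOX against Ctrl, the comparison that chose Serping1, that gene stood at -1.22, and the other members were between -0.77 (C2) and 0.23 (C3ar1). C1s1 was at 0.02, C1ra at -0.16, C4b at -0.13, Cfb at -0.13 and C3 at -0.39. In this comparison 0 of 19525 genes passed edgeR (0%), 407 had an unadjusted p under 0.05 and DESeq2 called 1. Serping1 is low here by choice, and nothing is read from the shares of all genes that were lower (1.18%) or higher (0.799%) with groups that did not overlap and an unadjusted p under 0.05. The intervals of its target proteases in this comparison were -0.62 to 0.67 for C1s1 and -0.58 to 0.26 for C1ra.

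The prodrug and its parent drug were compared at the same dose of 14 µg, alone and after the conjugate, which makes 2 pairs. With the conjugate, in R+D against R+X, Serping1 was higher by 0.93 ± 0.33, C1s1 by 0.77 ± 0.29 and C1ra by 0.46 ± 0.19 (edgeR adjusted p = 0.91 for Serping1 and C1s1 and 0.915 for C1ra). These 3 met both conditions, against 3.43% of genes higher and 1.51% lower, and share no library with the choice of Serping1. The fold changes of C3 (0.81 ± 0.57), C4b (0.69 ± 0.38), C2 (0.91 ± 0.51) and Cfb (0.30 ± 0.29) did not. C3ar1 differed by -0.10 (95% interval -0.54 to 0.34) and C5ar1 by 0.13 (-0.40 to 0.66). In edgeR 0 genes passed (0%), with 1028 at an unadjusted p under 0.05, and DESeq2 called 42 genes and no member. The count of 3 was 0 without R+X replicate 2 or without R+D replicate 2.

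Given alone, in DPD against DOX, C4b was higher in DPD by 0.86 ± 0.38 and C1s1 by 0.80 ± 0.29 (edgeR adjusted p = 0.979 for both), which met both conditions as 2.94% of genes did (1.2% lower). Serping1 was at 1.27 ± 0.34, a description, since the DOX libraries chose it. The receptors differed by 0.01 for C3ar1 (95% interval -0.43 to 0.45) and 0.07 for C5ar1 (-0.46 to 0.60). In edgeR 0 genes passed (0%), with 837 at an unadjusted p under 0.05, and DESeq2 called 9. The number meeting both conditions, 3 with Serping1, was 1 without DOX replicate 1 or DPD replicate 2 and 5 without DPD replicate 1.

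What a drug added to the conjugate was asked against RP. With DOX added, R+X against RP, the 7 components and inhibitor were lower and met both conditions, against 6.35% of genes lower and 2.22% higher. Serping1 was at -1.95 ± 0.34 and C1ra at -1.07 ± 0.19 (edgeR adjusted p = 0.159 for both). C3 was at -1.90 ± 0.59, C2 at -1.89 ± 0.51, C4b at -1.42 ± 0.38, C1s1 at -1.41 ± 0.30 and Cfb at -1.15 ± 0.30, with edgeR adjusted p from 0.222 to 0.329. Of the 9 members 0 passed edgeR, in which 0 genes (0%) passed and 1694 had an unadjusted p under 0.05. DESeq2 called 5 of them, C4b, Cfb, C1s1, C1ra and Serping1, among 305 genes. Without RP replicate 1 the conditions were met by 4 in place of 7, with Cfb at -0.68, C2 at -1.11 and Serping1 at -1.18, and without RP replicate 2 edgeR called 1 member.

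With the prodrug added, R+D against RP, 4 members were lower and met both conditions, against 1.85% of genes lower and 0.743% higher. Serping1 was at -1.02 ± 0.33, Cfb at -0.86 ± 0.29, C1s1 at -0.65 ± 0.29 and C1ra at -0.61 ± 0.19 (edgeR adjusted p = 1 for each). In edgeR 0 genes passed (0%), with 534 at an unadjusted p under 0.05, and DESeq2 called 10 genes and no member. The count of 4 was 0 without RP replicate 1, where Serping1 stood at -0.27 and Cfb at -0.40, and 1 without R+D replicate 1.

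**Figure D3:**
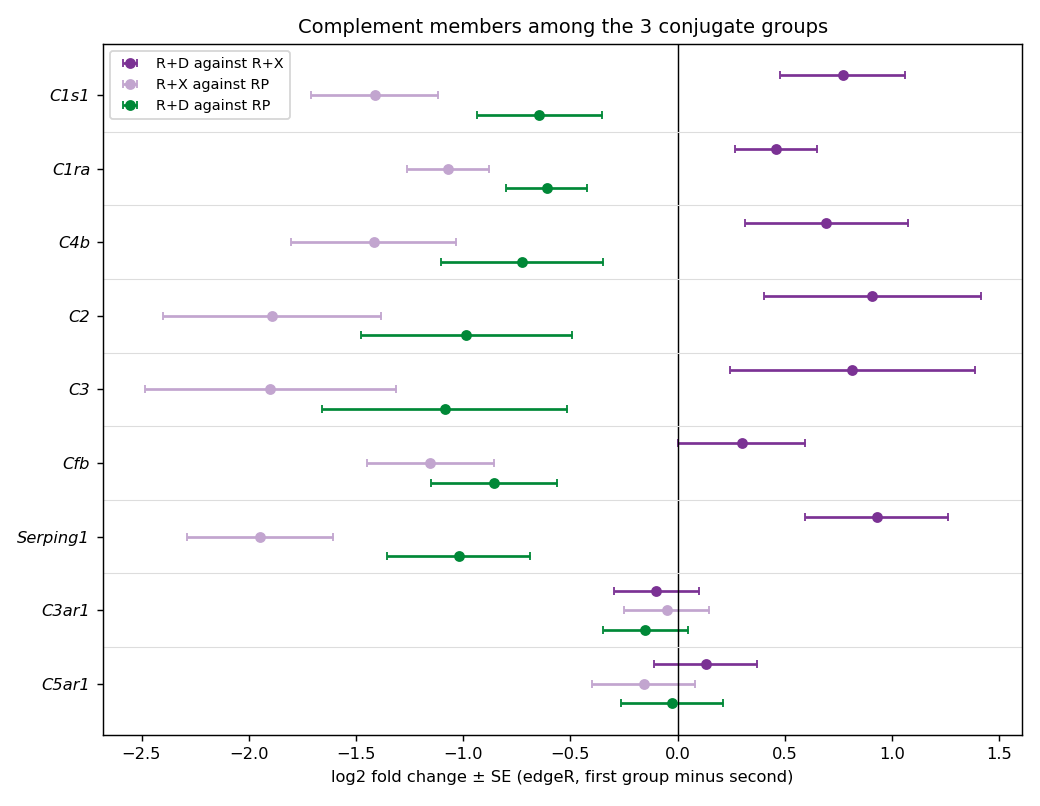
Fold changes on the log2 scale with their SE (x axis) of the 9 genes (rows) in R+D against R+X, R+X against RP and R+D against RP, from the same edgeR fit. The 7 upper rows lie left of 0 against RP, Serping1 reaching -1.95 in R+X, and the receptor rows lie near 0; the comparisons share libraries.

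Averaged over the drug settings, the 3 conjugate groups were above the 3 without it by 1.05 ± 0.17 for C1s1 and 0.97 ± 0.22 for C4b, but 0 members had 6 libraries that did not overlap the other 6, against 0.21% of genes higher and 0.0563% lower. Serping1 was at 0.65 ± 0.19, a description because Ctrl and DOX libraries enter it. Where a drug was given, its route changed together with the conjugate. The adjusted p of edgeR was 0.141 for C1s1 and 0.145 for C4b and C1ra (0.53 ± 0.11). In edgeR 0 of 9 members passed, with 3 genes in all (0.0154%) and 6 members and 3968 genes at an unadjusted p under 0.05, while DESeq2 called C4b, C1s1, C1ra and Serping1 among 951 genes. Without DOX replicate 2 edgeR called 4 members among 3233 genes, and without DPD replicate 2 it called 1.

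In each of the 7 components and inhibitor the fitted conjugate difference was larger without a drug than with either drug. Where a drug was given, its route changed together with the conjugate, so conjugate and route cannot be told apart there. For C1s1 the conjugate difference was 0.55 ± 0.29 with DPD (R+D against DPD), 0.58 ± 0.29 with DOX (R+X against DOX) and 2.02 ± 0.30 with neither (RP against Ctrl). For C3 it was 0.37 ± 0.57 with DPD, 0.61 ± 0.57 with DOX and 2.12 ± 0.59 with neither. An interaction test asked whether the difference depended on the setting, and C1s1, C1ra, Cfb and C4b, 4 of the 9 members, had an unadjusted p under 0.05, where 3.15% of genes (616) did. Serping1 was not among these 4, and its values here are a description, since DOX and Ctrl libraries chose it. The edgeR adjusted p of these 4 was 0.9975, and 0 genes (0%) passed after adjustment in edgeR against 9 in DESeq2, none of them a member.

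The other complement genes were listed from textbook knowledge, 49 in number, of which 34 passed the filter on low counts. In RP against Ctrl 9 of the 34 were higher and 0 lower under both conditions, where 12% of all genes were higher and 9.36% lower, and their median was 0.69. The members of smallest p were C1rb, a close copy of C1ra (8.57 against 3.46 CPM, 1.31 ± 0.30), Cd93, a surface protein once described as a C1q receptor (48.3 against 25.1 CPM, 0.94 ± 0.23), Itgam, a chain of complement receptor CR3 (84.7 against 46.3 CPM, 0.87 ± 0.27), and C1rl, a relative of C1r (5.51 against 3.04 CPM, 0.86 ± 0.29). Their edgeR adjusted p ran from 0.127 to 0.173. In the list 0 genes passed edgeR. C1q, the recognition molecule made by macrophages, is named after its values were seen: C1qa had 201.4 and 85.9 CPM in RP against 150.0 and 164.5 in Ctrl, with a fold change of -0.13 ± 0.50.

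In R+D against Ctrl 3 of these 34 genes were higher and 1 lower under both conditions, with a median of 0.28; 8.51% of all genes were higher and 6.64% lower, so the number higher is near the background. Cd55, which speeds the decay of the C3-cutting enzymes, was at 1.03 ± 0.32, and C4a, a copy of C4b, at 1.07 ± 0.39. Cr1l, the rodent membrane regulator Crry, was at -0.56 ± 0.20 (31.6 in R+D against 46.6 CPM in Ctrl; edgeR adjusted p = 0.314). In R+X against RP 0 were higher and 5 lower, where 2.22% of all genes were higher and 6.35% lower, among them C1rb (-0.90 ± 0.29), Cfp, which encodes properdin (-0.62 ± 0.24), and Cd93 (-0.52 ± 0.23), with edgeR adjusted p from 0.36 to 0.572. Terminal components were mostly scarce: C7, C8a, C8b and C9 did not pass the filter. Hc, which encodes C5, had 0.42 to 1.26 CPM over the libraries, C6 a mean of 0.564 and C8g of 1.72. For the averaged conjugate C8g was higher (0.51 ± 0.18, edgeR adjusted p = 0.192), 1 of 34 to meet both conditions, as 0.21% of all genes did.

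**Figure D4:**
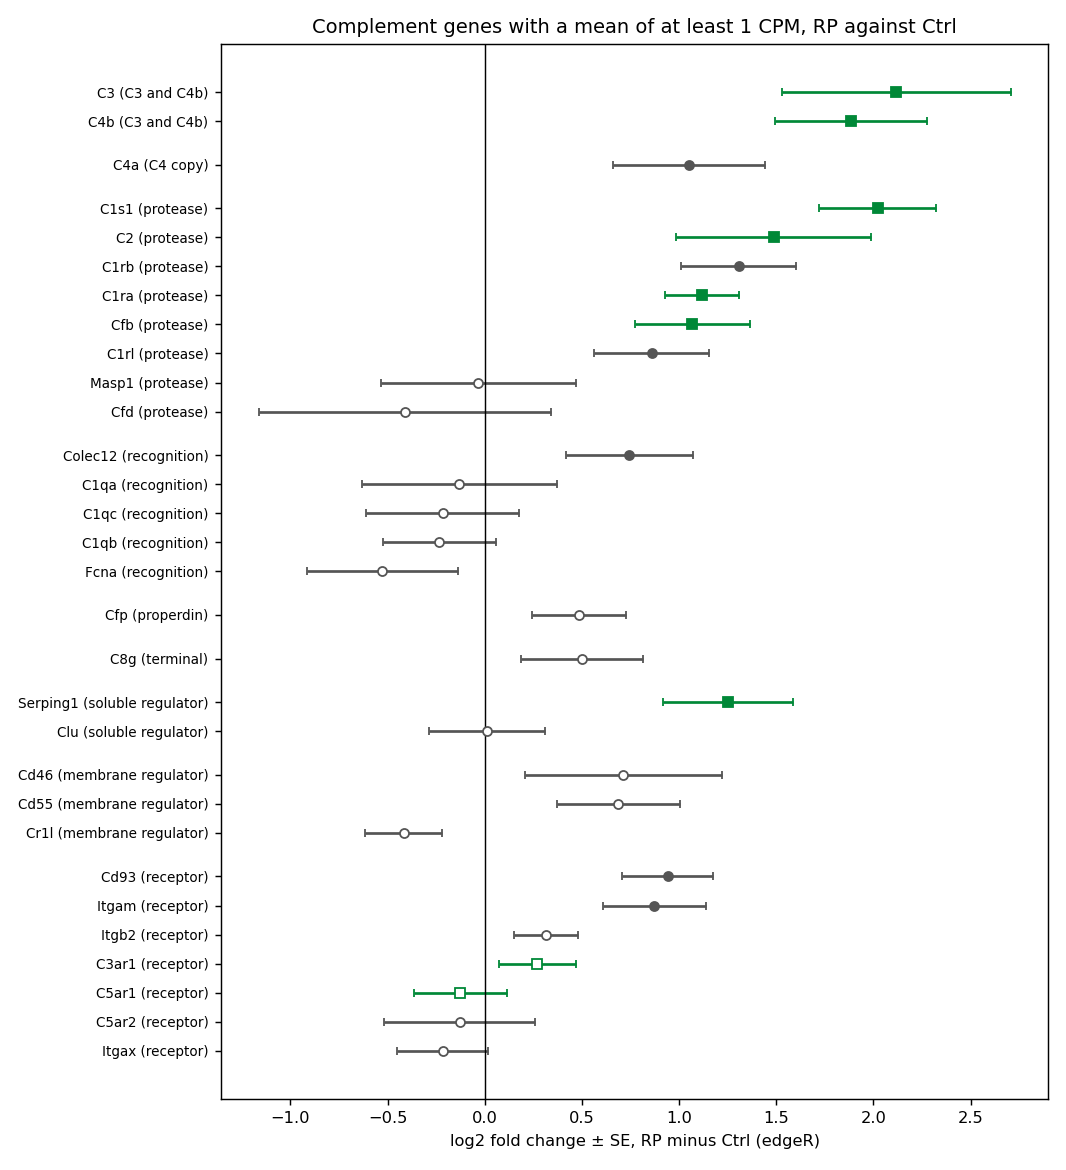
Fold changes on the log2 scale with their SE (x axis) in RP against Ctrl for 30 complement genes, members and others, with a mean of at least 1 CPM, grouped by role (rows). Squares are the 9 members and circles other genes; the 13 filled symbols had groups that did not overlap and an unadjusted p under 0.05, C3 lies highest at 2.12, and C1qa, C3ar1 and C5ar1 lie at -0.13, 0.27 and -0.13.

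Other transcripts moved with the members. A list of 15 interferon gamma response genes summed to 1918 to 2114 CPM in R+D, 1043 to 1493 in R+X, 2539 to 2933 in RP, 1445 to 1760 in DPD, 1001 to 1020 in DOX and 1085 to 1223 in Ctrl, an order of group means that put RP at the top and DOX at the bottom. In RP against Ctrl 12 of these 15 were higher under both conditions. For this and the marker counts below, 12% of all genes were higher and 9.36% lower in that comparison. T cell markers (6 of 7 tested) summed to 21.5 to 40.4 CPM in R+D, 9.35 to 18.4 in R+X, 33.6 to 36.9 in RP, 20.4 to 24.9 in DPD, 12.6 to 12.7 in DOX and 16 to 21 in Ctrl. Endothelial markers summed to 147 and 109 CPM in RP and 64.3 to 84.4 in Ctrl. Fibroblast markers, 9 of 9 tested, overlapped between RP (4896 to 7131 CPM) and Ctrl (4663 to 5840) in sum, though 4 of 9 were higher under both conditions. Macrophage markers summed to 1426 to 1452 CPM in RP and 1124 to 1227 in Ctrl, and 2 of 8 were higher. These sums lean on the most abundant gene of a list, Lyz2 for macrophages (mean 903 CPM) and Col3a1 for fibroblasts (3476). The median fold change of the fibroblast markers in RP against Ctrl was 0.94. In RP against Ctrl 8 of 8 skeletal muscle, 5 of 6 endothelial and 3 of 6 T cell markers were higher under both conditions. Of the remaining lists, 2 of 3 monocyte, 2 of 5 neutrophil and 1 of 3 B and plasma cell markers were higher. In them 1 neutrophil and 5 of 5 red blood cell markers were lower, and 0 of 6 skin, 0 of 4 adipocyte and 0 of 4 epithelial markers met the conditions. The median fold change was still 2.32 for the skin markers, against 0.27 for adipocyte and -0.12 for epithelial markers. Skin sums overlapped between RP (382 to 494 CPM) and Ctrl (371 to 435). Skeletal muscle transcripts summed to 20 and 253 CPM in R+D, 7.8 to 16.1 in R+X, 192 and 73.1 in RP, 12.3 to 12.6 in DPD, 7.86 to 10.2 in DOX and 17.9 to 21.1 in Ctrl. RP replicate 1 and R+D replicate 2, the libraries richest in muscle transcripts, were also those of their group with the higher C3, C4b, C1s1, C1ra and Serping1, while C2 and Cfb were higher in RP replicate 1 but lower in R+D replicate 2 than in its group mate. The part of these transcripts in the complement differences was not tested, and in whole tumours fewer cells of a type and less RNA per cell cannot be told apart.

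**Figure D5:**
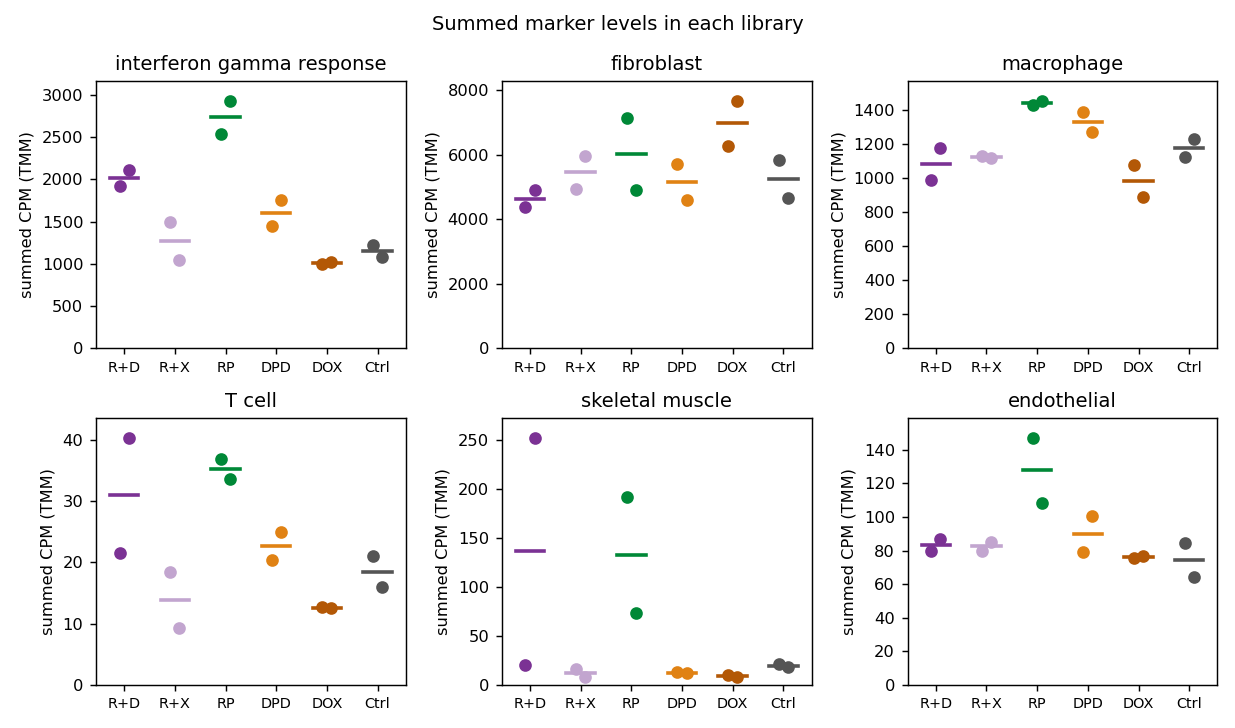
Summed TMM-scaled CPM (y axis, linear from 0) of 6 marker lists in each group (x axis), with points for libraries and horizontal lines for the mean of 2. The interferon gamma response and endothelial sums are highest in RP, the fibroblast sums of RP and Ctrl overlap, and the muscle sum is high in 1 library of R+D (253 CPM) and in RP.

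Liver transcripts were close to 0, with Alb at a mean of 0.0331 CPM and Ttr at 0 in all libraries. Of the epithelial markers, Cdh1 had a mean of 13.9 CPM, while Krt8 (0.0415), Krt18 (0.0434) and Cdx2 (0 in every library) were nearly absent, so the tumour line was poorly marked by this list. Library totals ran from 46547114 to 56462259 counts. Group mates were least alike in DOX (chi-square over its degrees of freedom, 210.1) and most alike in R+X (13.2), in every group beyond sampling noise.

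C2, Cfb and C4b each had 3 further rows under the same name with a suffix, while the other 6 members had none. In RP the further rows of C4b together held 144% and 150% of the CPM of the plain row, against 131% and 119% in Ctrl. For C2 this share ran from 155% to 243% over the libraries, and whether these rows hold further reads or the same reads as the plain row is not stated, so the levels of these 3 genes are uncertain. C4b and C4a are also near-identical copies. With the rows summed, the fold changes in RP against Ctrl were 2.01 ± 0.40 for C4b, 1.46 ± 0.44 for C2 and 1.09 ± 0.27 for Cfb (edgeR adjusted p from 0.133 to 0.159). C1ra and C1s1 likewise have close copies. C2 and Cfb overlap the annotated gene Gm20547 on the same strand, so even a known strand setting would not separate those reads. C2 also overlaps Zbtb12, and C1s1 overlaps Gm16567, on the opposite strand, and these reads cannot be separated without the strand setting.

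The genes whose levels were most like those of Serping1 over the 12 libraries, among 12298 named genes outside the complement lists with a mean of at least 1 CPM, were Icam1, Podn, Gimap1, H2-Q7 and H2-D4, with Pearson correlations of log2 CPM from 0.949 to 0.967. For C3 they were Atp8b1, Gzma, Epas1, Cytip and Susd2, with correlations from 0.957 to 0.972. These are descriptions of the highest of many values, and the libraries share their groups. Icam1 is also in the interferon gamma list above.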

How the data were processed

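Tumour RNA was taken with TRIzol and made into libraries with the NEBNext Ultra kit, per the labels' protocols. Per the submitters' processing notes, HISAT2 2.1.0, StringTie 1.3.5 and DESeq2 were named, with build GRCm38; for their roles, the annotation and the strand setting the sources used here give nothing. The authors deposited unnormalised counts in whole numbers, 43698 rows for 12 libraries, with totals from 46547114 to 56462259. Groups came from the agent label, with R+X read as conjugate plus DOX because X occurs only in DOX; if this is wrong, R+X and R+D change places. The members, lists and naming rule were chosen with earlier results of these data known.

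Counts were fitted in R 4.3.3 with the quasi-likelihood test of edgeR 4.0.16 over all 12 libraries in 6 groups (6 residual degrees of freedom, TMM, filterByExpr), and p-values were adjusted by Benjamini-Hochberg over 19525 genes. A member's fold change is given with its SE where the groups did not overlap in CPM and the unadjusted p was under 0.05, other values by range or beside these. Other complement genes are named by the same rule at a mean of at least 1 CPM, up to 4 by smallest p. This was done for RP and R+D against Ctrl, R+X against RP and the averaged conjugate only. Some of the list also met the conditions in other comparisons and are not named there. Tested on simulated data for RP against Ctrl (19092 genes), the fit called 27% of genes changed 2-fold and 90% of those changed 4-fold, with 5 false calls. This was 1 run, with 100 genes per fold of at least 1 CPM changed in RP alone and all other genes flat. The shares therefore need not hold for the members. Tried as alternatives were DESeq2 1.42.0, a fit without the low-count filter, RLE scaling, fits of only the groups compared, fits leaving out each library in turn, and, added after seeing the data, summed rows of one name. Exon lengths came from GENCODE M21 and gene positions from RefSeq, both GRCm38. One listed complement gene is counted in the list but not reported by name here.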

Additional observations from a re-analysis of the deposited data

Results flagged for a closer look

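Rows of the count table with a suffixed copy of a member's name lie outside the rows compared and were higher in RP than in Ctrl. The 3 such rows of C4b summed to a mean of 74.2 CPM in RP (69.6 to 78.8) and 17.3 CPM in Ctrl (11.7 to 22.9). Those of Cfb summed to 22.9 CPM in RP (16.4 to 29.5) and 10.6 CPM in Ctrl (9.47 to 11.8), and those of C2 to 4.66 CPM in RP (2.71 to 6.61) and 1.71 CPM in Ctrl (1.18 to 2.24). These rows may hold the same reads as the plain rows, so they are not further evidence.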

How the results depend on the processing

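The fold changes below include Serping1 in DOX against Ctrl and in DPD against DOX, both descriptions. The 29 fold changes of members with groups that did not overlap and an unadjusted p under 0.05 were recomputed under every alternative (261 values). Of these 0 changed sign, which that choice largely fixes, and 18 passed the adjusted threshold where the edgeR value had not, 12 of them in DESeq2. RLE scaling changed no count of genes or members by more than 1.5 times. Genes called with no low-count filter were 14 in RP against Ctrl, 13 for the averaged conjugate, 5 in R+X against RP, and 1 each in R+D, DPD and DOX against Ctrl. DESeq2 called 1211 genes in RP, 4 in R+X, 232 in R+D, 7 in DPD and 1 in DOX against Ctrl, 42 in R+D against R+X, 305 in R+X against RP, 10 in R+D against RP, 9 in DPD against DOX, 951 for the averaged conjugate and 9 for the interaction. With only the groups compared, 505 genes were called in RP, 6 in R+X, 8 in R+D and 2 in DOX against Ctrl, and 1 each in R+X against RP, R+D against RP and DPD against DOX.

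Members called were 6 (DESeq2), 4 (only the groups compared) and 1 (no filter) in RP against Ctrl, 1 (DESeq2) in R+D against Ctrl, 5 (DESeq2) in R+X against RP, and 4 (DESeq2) and 1 (no filter) for the averaged conjugate. With 1 library left out, genes called ran from 0 to 1 in RP, R+D, DPD and DOX against Ctrl, R+D against R+X, R+D against RP, DPD against DOX and the interaction, from 0 to 7 in R+X against RP, and from 0 to 3233 for the averaged conjugate; members called ran from 0 to 1 in R+X against RP and from 0 to 4 for the averaged conjugate. Members with groups that did not overlap and an unadjusted p under 0.05 then ran from 4 to 7 in RP, 0 to 1 in R+X, 1 to 4 in R+D and 0 to 2 in DPD against Ctrl, 0 to 4 in R+D against R+X, 4 to 7 in R+X against RP, 0 to 4 in R+D against RP and 1 to 5 in DPD against DOX. In R+X against Ctrl that number was 2 with no filter, in DESeq2 and with only the groups compared, and with summed rows of one name it was 2 in DPD against Ctrl. A lone library of a group was assumed to vary like the other groups. The causes of these shifts were not tested. No paired analysis was possible because the labels number no replicates.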
